A study of Homo sapiens with 9 samples.

Results

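The genes described here govern how cells take up iron and cystine and how they hold lipid peroxides in check. They are TFRC, SLC7A11, SLC3A2, GPX4, ACSL4, FTH1, FTL, AIFM2, GCLC and GCLM, the rows of the expression table that carry these symbols. All 10 were found among its 25084 genes, and all 10 passed the low-value filter, which kept genes reaching 1 CPM in 3 or more libraries. CPM is a gene's read count scaled to a common library total. The members were named by function, with earlier results of these data known.

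RNA came from LAN5, an established human neuroblastoma line with amplified MYCN, grown in RPMI-1640 with fetal calf serum. Cells were electroporated with siRNAs, short RNAs that direct the breakdown of a matching transcript, and RNA was taken 72 h later. The labels name 1 siRNA per group, siCTR (a control), siMYCN_2 against MYCN and siHAND2_3 against HAND2, here called siCTR, siMYCN and siHAND2, with 3 libraries each. With 1 siRNA per target, an effect of the target and an effect of that siRNA on other transcripts cannot be told apart. The labels do not say whether the replicates were separate cultures, so p-values measure the spread between these libraries, which may be technical.

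Ferroptosis is a form of cell death driven by iron and by the peroxidation of polyunsaturated membrane lipids. The transferrin receptor TFRC brings iron in, and ferritin, a shell built of FTH1 and FTL chains, stores it. Cystine enters through a transporter made of SLC7A11 and SLC3A2, and its cysteine is joined to glutamate by GCLC and GCLM on the way to glutathione. The selenoenzyme GPX4 uses glutathione to reduce lipid peroxides, AIFM2 (also called FSP1) reduces coenzyme Q to a radical trap, and ACSL4 loads membranes with the lipids that oxidise. In neuroblastoma the pathway is studied because MYC-family factors are known to act on TFRC and on cystine use.

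Ferritin and transferrin receptor transcripts carry iron-responsive elements, hairpins bound by the iron regulatory proteins ACO1 and IREB2. Bound at the 5′ end they hold back translation of ferritin, and bound in the 3′ UTR they protect the TFRC transcript. The elements are shown because TFRC, FTL and FTH1, the 3 members with the largest changes in siMYCN, are the members that carry them. Their part in these changes was not tested. Each is from the MANE Select transcript in GENCODE release 44, 29 bases, 5′ to 3′, with the loop CAGTGN in capitals.
FTH1 5′ UTR, bases 33 to 61: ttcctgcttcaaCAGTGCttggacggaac
FTL 5′ UTR, bases 27 to 55: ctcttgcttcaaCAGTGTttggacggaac
TFRC 3′ UTR, bases 3289 to 3317: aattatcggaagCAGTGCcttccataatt
TFRC 3′ UTR, bases 3693 to 3721: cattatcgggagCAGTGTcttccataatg
TFRC 3′ UTR, bases 3758 to 3786: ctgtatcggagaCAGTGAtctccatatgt
TFRC 3′ UTR, bases 3805 to 3833: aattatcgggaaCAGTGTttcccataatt

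The search asked for a C, 5 bases, CAGTGN and 5 bases able to pair with the first 5, on the transcript's own strand. No other member matched in a UTR. Of 18629 transcripts with a 5′ UTR, 18 (0.097%) held a match there, and of 18645 with a 3′ UTR, 121 (0.65%) did. A match is a description of the letters, and protein binding was not measured.

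The labels held for both targets. MYCN averaged 70.0% of its siCTR level in siMYCN and 49.6% in siHAND2, and HAND2 averaged 54.2% in siHAND2 and 114% in siMYCN. MYCN was thus lower in siHAND2 (914 ± 48.4 CPM) than in siMYCN (1289 ± 47 CPM), a difference of -0.50 on the log2(CPM + 1) scale (limma adjusted p = 6.21e-07), so a member that fell in siHAND2 did so where both transcripts were reduced. The step between low CPM values put the depth at about 21100000 to 32700000 assigned reads per library. The 6 neuroblastoma markers DBH, TH, CHGA, CHGB, STMN2 and ISL1 summed to 1176 to 1289 CPM (siCTR), 1614 to 1683 CPM (siMYCN) and 1298 to 1441 CPM (siHAND2). The 6 fibroblast and mesenchymal markers summed to 101 to 107, 124 to 132 and 252 to 289 CPM in the same order, with COL1A1 under 1 CPM in every group and DCN under 1 CPM in siCTR. Of the blood and immune markers, PTPRC, CD68 and CD14 were in the table and summed to at most 0.724 CPM. Of the 5 endothelial and epithelial markers in the table, 4 stayed under 1 CPM in every group and the sum reached at most 5.18 CPM. The part of the mesenchymal rise in siHAND2 in the results below was not tested. These are bulk samples, in which fewer cells of a type and less RNA per cell cannot be told apart.

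In siMYCN, TFRC, FTL, GCLC and SLC3A2 fell and FTH1 rose, and in siHAND2, TFRC, FTL and GCLC fell. That is 5 of the 10 members past a Benjamini-Hochberg adjusted p of 0.05 (limma, over all genes tested) in siMYCN, beside 35.9% of all 14495 genes tested. It is 3 of 10 in siHAND2, beside 29.9% of all genes, a share like the background. Against siMYCN directly, siHAND2 differed in 2 of 10 members (FTL higher, FTH1 lower), beside 26.9%. The members called in siMYCN were 1 higher and 4 lower, where 24.5% of all genes were called higher and 11.4% lower. In siHAND2 none was called higher and 3 were called lower, beside 18.1% and 11.8% of all genes. The median difference over the 10 members was -0.08 in siMYCN and -0.05 in siHAND2 on the log2(CPM + 1) scale, where the medians of all genes were 0.06 and 0.04. Both comparisons use the same siCTR libraries, so values that they share are not independent.

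**Figure D1:**
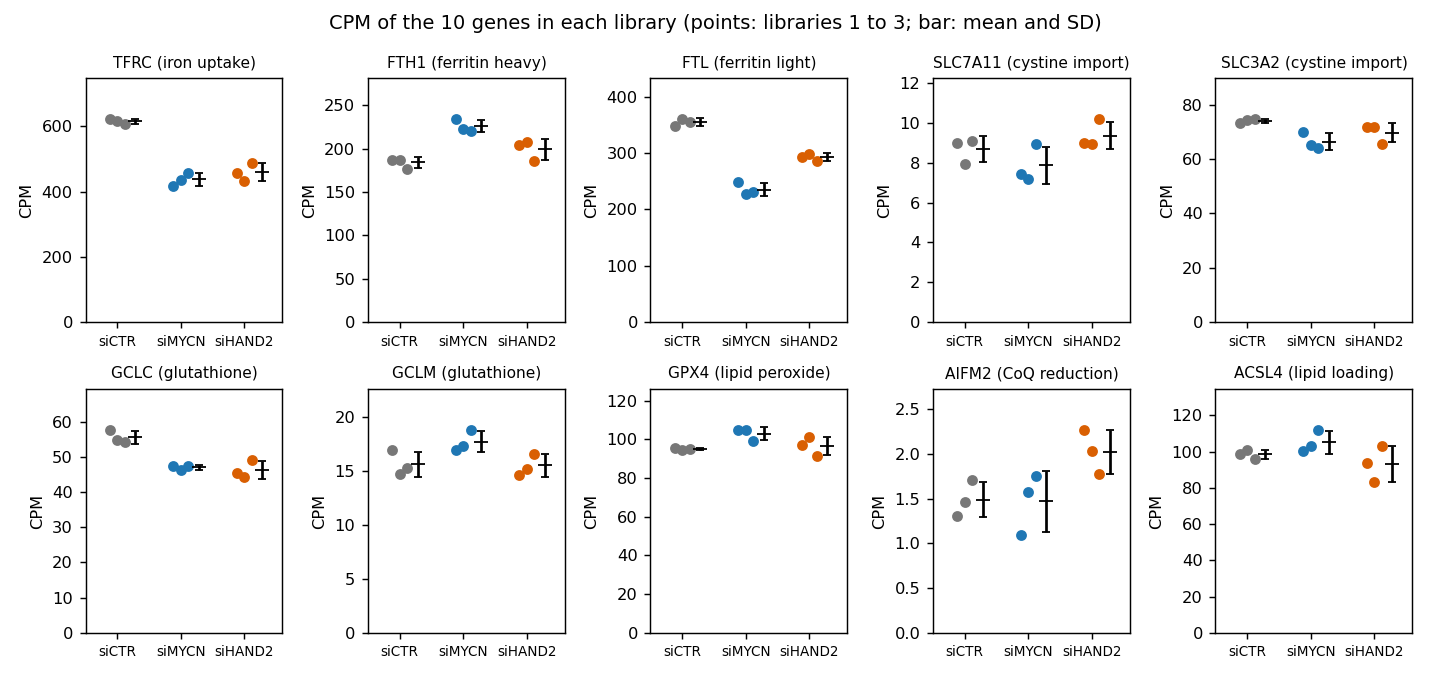
CPM of each of the 10 genes (y axis, from 0, a scale for each panel) in the siCTR, siMYCN and siHAND2 libraries; points are libraries 1 to 3 and bars are mean and SD. TFRC and FTL lay lower in all 6 knockdown libraries than in the 3 siCTR libraries, and FTH1 was highest in siMYCN.

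**Figure D2:**
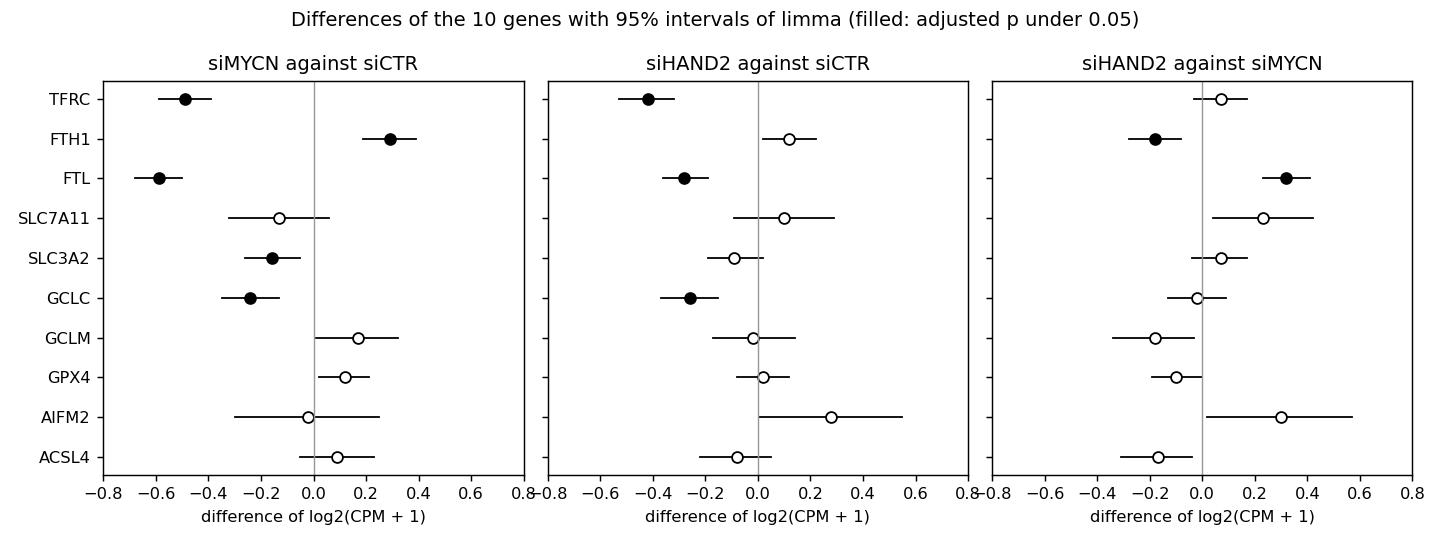
Difference of log2(CPM + 1) (x axis) for the 10 genes in the 3 comparisons, with 95% intervals from limma; filled points passed an adjusted p of 0.05. FTL fell by 0.59 in siMYCN and by 0.28 in siHAND2, TFRC by 0.49 and 0.42, and the intervals of AIFM2 are the widest.

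TFRC (chromosome 3, 196027183 to 196082096, minus strand, GRCh38) measured 622, 615 and 608 CPM in siCTR. It measured 417, 436 and 456 CPM under siMYCN and 457, 431 and 487 CPM under siHAND2. The 6 knockdown libraries all lay below the 3 siCTR libraries, and the 2 knockdowns overlapped each other. The siMYCN mean was 71% of siCTR, a log2 difference of -0.49 (standard error 0.05, adjusted p = 1.06e-06). The siHAND2 mean was 74.6% of siCTR, a difference of -0.42 (standard error 0.05, adjusted p = 4.13e-06). Between the knockdowns it was 0.07 (95% interval -0.03 to 0.17, adjusted p = 0.304), so a gap of up to 1.13-fold between them is within the interval.

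By the size of their difference from TFRC over all 9 libraries, the genes with the most similar pattern among 11200 were MBLAC2, DDX21 and REXO2. The measure was the root mean square difference of centred log2(CPM + 1) values, which was 0.050, 0.051 and 0.053. DDX21, a nucleolar RNA helicase, averaged 374 ± 9.08 CPM (siCTR), 276 ± 8.4 CPM (siMYCN) and 295 ± 11.5 CPM (siHAND2) (SD, n = 3 libraries). The likeness is a description over libraries that share 3 groups.

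Around TFRC, 14 of the 18 listed genes of iron uptake and export were tested. In siMYCN 2 rose and 4 fell, and in siHAND2 2 rose and 5 fell. Of all genes, 24.5% were called higher and 11.4% lower in siMYCN, and 18.1% and 11.8% in siHAND2. The same shares stand beside every list count against siCTR below. Without siCTR replicate 2 the siHAND2 calls of this list dropped from 7 to 4. The median log2 differences of the list were -0.04 and -0.02. The metal importers SLC39A14 and SLC39A8 had the smallest p in both. SLC39A14, also called ZIP14, measured 71.4, 70.6 and 72.1 CPM (siCTR), 57.4, 58.9 and 61.4 CPM (siMYCN) and 54.3, 57.1 and 58.4 CPM (siHAND2). It fell by 0.27 (adjusted p = 3.30e-04) and by 0.33 (adjusted p = 4.82e-05), with no overlap with siCTR. SLC39A8, or ZIP8, fell from 16.7 ± 0.615 CPM to 11.7 ± 0.926 in siMYCN (-0.48, adjusted p = 6.98e-05) and 12.8 ± 0.349 in siHAND2 (-0.36, adjusted p = 0.00106). HEPH, the membrane-bound oxidase that helps iron leave cells, rose in both (0.37, adjusted p = 0.0104, and 0.45, adjusted p = 0.00395), at 3.79 ± 0.537 CPM in siCTR. The iron exporter SLC40A1, which also holds an iron-responsive element (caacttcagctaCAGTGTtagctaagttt, 5′ UTR bases 98 to 126), rose in siHAND2, from 2.2 ± 0.16 to 3.1 ± 0.274 CPM (0.35, adjusted p = 0.0193). HEPH and SLC40A1 were picked after their values were seen.

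The ferritin genes moved apart. FTL, the light chain (chromosome 19, 48965309 to 48966879, plus strand), measured 348, 360.5 and 356 CPM (siCTR), 248, 227 and 231 CPM (siMYCN) and 293, 299 and 286 CPM (siHAND2). The 3 groups did not overlap, with siCTR highest and siMYCN lowest. FTL fell by 0.59 in siMYCN (standard error 0.04, adjusted p = 6.00e-08), to 66.3% of siCTR. In siHAND2 it fell by 0.28 (standard error 0.04, adjusted p = 1.13e-04), to 82.6%. The direct comparison put siHAND2 0.32 above siMYCN (95% interval 0.23 to 0.41, adjusted p = 2.65e-05).

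FTH1, the heavy chain with ferroxidase activity (chromosome 11, 61959718 to 61967634, minus strand), measured 187, 187 and 177 CPM in siCTR. It measured 234, 223 and 219.7 CPM under siMYCN and 204, 208 and 186 CPM under siHAND2. All 3 siMYCN libraries exceeded all others, while siHAND2 replicate 3 fell within the siCTR values. FTH1 rose by 0.29 in siMYCN (standard error 0.05, adjusted p = 1.65e-04), to 123% of siCTR. In siHAND2 the difference was 0.12 (95% interval 0.02 to 0.22, adjusted p = 0.0773). With the replicate number as a block it was 0.12 with an adjusted p of 0.0228, and without siHAND2 replicate 3 it was 0.17 and past the threshold. After median-ratio rescaling it was 0.06 (adjusted p = 0.433). The siHAND2 level was 0.18 below that of siMYCN (adjusted p = 0.0102), a call lost without siMYCN replicate 1 (-0.15).

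Since both chains sit in the same library, their ratio does not depend on how libraries were scaled. FTH1 to FTL was 0.539, 0.519 and 0.497 (siCTR), 0.942, 0.984 and 0.952 (siMYCN) and 0.696, 0.695 and 0.65 (siHAND2). Each group lay apart from the other 2, at means of 0.518 ± 0.021, 0.959 ± 0.0222 and 0.68 ± 0.0265 (SD, n = 3 libraries). TFRC to FTH1 was 3.32, 3.29 and 3.44 (siCTR), 1.79, 1.95 and 2.08 (siMYCN) and 2.24, 2.07 and 2.62 (siHAND2), below siCTR in every knockdown library. TFRC to FTL was 1.79, 1.71 and 1.71 (siCTR), 1.68, 1.92 and 1.98 (siMYCN) and 1.56, 1.44 and 1.7 (siHAND2). That ratio overlapped siCTR in siMYCN, where both transcripts fell, and lay below siCTR in siHAND2. These ratios are of CPM values and are not corrected for transcript length. The 2 chains together summed to 539 ± 7.97 CPM (siCTR), 461 ± 18.1 CPM (siMYCN) and 492 ± 18.2 CPM (siHAND2), with every knockdown library below every siCTR library. Ferritin genes have many near-identical pseudogene copies, and how reads that fit several copies were counted is not given in the sources used here, so both levels are uncertain. The 10 FTH1 copies in the table summed to between 0.412 and 0.969 CPM per library and the 2 FTL copies to at most 0.3 CPM. FTH1 also overlaps BEST1 on the other strand, which measured 3.26 to 3.68 CPM (siCTR), 3.93 to 5.44 CPM (siMYCN) and 3.31 to 3.71 CPM (siHAND2).

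**Figure D3:**
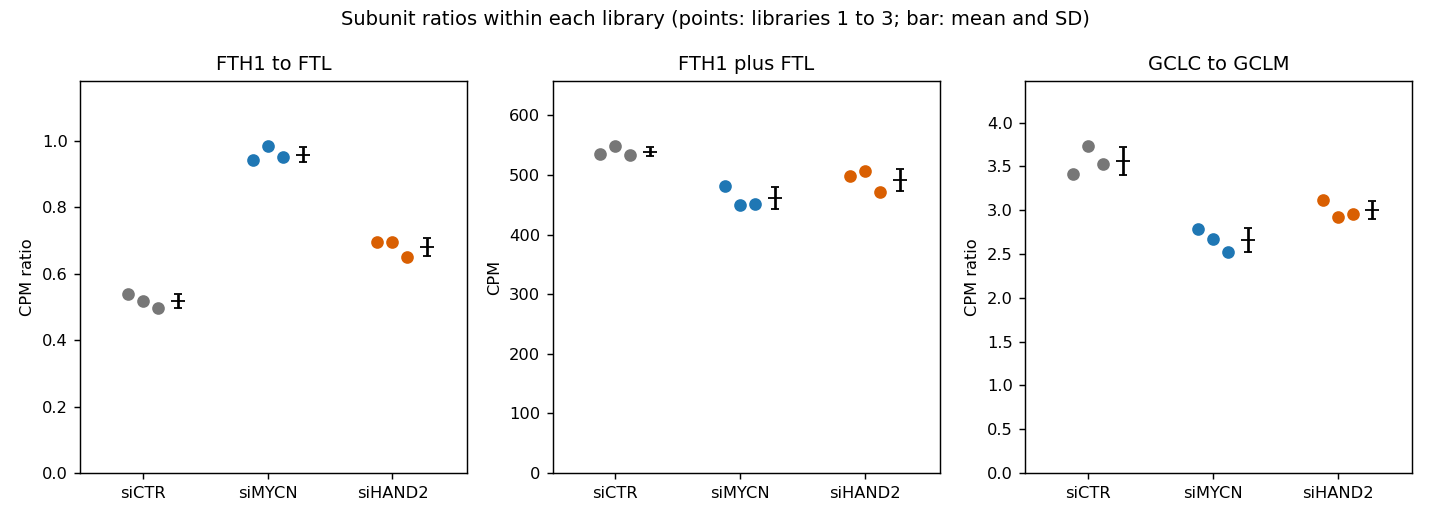
CPM ratio of FTH1 to FTL, CPM sum of FTH1 and FTL, and CPM ratio of GCLC to GCLM (y axes, from 0) by siRNA group; points are libraries 1 to 3 and bars are mean and SD. The FTH1 to FTL ratio averaged 0.518 in siCTR, 0.959 in siMYCN and 0.68 in siHAND2, with no overlap of groups.

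Of the 7 genes listed for iron sensing and ferritin turnover, 4 were tested, and FBXL5 was the called gene in both knockdowns. FBXL5 is the iron-sensing ubiquitin ligase subunit that marks IREB2 for breakdown. It measured 72.4, 70.3 and 73.3 CPM (siCTR), 80.9, 89 and 83 CPM (siMYCN) and 85.7, 83.7 and 90.3 CPM (siHAND2). It rose by 0.22 (adjusted p = 0.00177) and 0.26 (adjusted p = 6.02e-04), and every knockdown library lay above every siCTR library. IREB2 differed by 0.07 and 0.11 (adjusted p = 0.256 and 0.0725). The number called was 2 with the replicate block in siHAND2 and 2 after quantile normalization in siMYCN. ACO1 differed by -0.08 and 0.08, and NCOA4, the receptor that delivers ferritin to lysosomes, by 0.04 in both, none of them past the threshold.

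All 10 listed genes of iron-sulphur cluster and heme assembly, which use imported iron, were tested. In siMYCN 1 rose and 4 fell, beside 24.5% and 11.4% of all genes. In siHAND2 5 fell and none rose, beside 11.8% and 18.1%. LYRM4, a partner of the cysteine desulfurase NFS1, fell from 47.4 ± 1.36 CPM to 38 ± 0.96 in siMYCN (-0.31, adjusted p = 1.45e-04) and 37 ± 0.975 in siHAND2 (-0.35, adjusted p = 4.88e-05). NFS1 fell by 0.30 in siMYCN (adjusted p = 0.00859) and by 0.25 in siHAND2 (adjusted p = 0.0264). FECH, the ferrochelatase that inserts iron into heme, fell from 58.3 ± 4.74 to 43.4 ± 2.38 CPM in siHAND2 (-0.42, adjusted p = 8.09e-05). It also fell in siMYCN, to 50.5 ± 2.26 CPM (-0.20, adjusted p = 0.0177). After either other scaling the siMYCN calls of this list were 0 higher and 5 lower. The number called moved with single libraries. In siMYCN it went from 5 to 3 without siCTR replicate 1 or siCTR replicate 2 and to 2 without siMYCN replicate 3. In siHAND2 it was 3 without siCTR replicate 1, siCTR replicate 3 or siHAND2 replicate 2, and 8 after median-ratio rescaling.

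The cystine transporter changed little. SLC7A11, its catalytic chain (chromosome 4, 138164097 to 138242349, minus strand), was low, at 8.99, 7.94 and 9.11 CPM (siCTR), 7.45, 7.21 and 8.94 CPM (siMYCN) and 8.98, 8.96 and 10.2 CPM (siHAND2). Both knockdowns overlapped siCTR. The differences from siCTR were -0.13 in siMYCN (95% interval -0.32 to 0.06, adjusted p = 0.292) and 0.10 in siHAND2 (-0.09 to 0.29, adjusted p = 0.444). These intervals leave room for a fall to 0.80-fold in siMYCN and a rise to 1.23-fold in siHAND2. Over the alternatives the difference lay between -0.21 (without siMYCN replicate 3) and -0.08 (without siMYCN replicate 2) in siMYCN. In siHAND2 it was 0.04 without siCTR replicate 2, 0.05 without siHAND2 replicate 3 and 0.05 after either other scaling. The 3 siHAND2 libraries all lay above the 3 siMYCN libraries, by 0.23 (adjusted p = 0.0751), and this passed the threshold without siMYCN replicate 3 (0.31). At about 185 to 294 reads per library, counting alone gave SLC7A11 a coefficient of variation of about 5.83% to 7.36%.

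The genes most like SLC7A11 over the 9 libraries, by the same measure as for TFRC, were ZNF749 (0.036), DCP2 (0.051) and FGF2 (0.054). FGF2, a fibroblast growth factor, averaged 48.3 ± 2.67, 41.4 ± 2.94 and 50 ± 2.45 CPM in the groups siCTR, siMYCN and siHAND2. As for TFRC, the likeness is a description. SLC7A11 had no called difference, and the part of counting variation in its pattern was not tested.

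SLC3A2, the heavy chain shared by several amino acid transporters (chromosome 11, 62856102 to 62888875, plus strand), measured 73.4, 74.3 and 74.7 CPM in siCTR. It measured 70, 65.2 and 64 CPM under siMYCN and 71.8, 71.8 and 65.5 CPM under siHAND2. All 6 knockdown libraries lay below siCTR, by small margins. It fell by 0.16 in siMYCN (standard error 0.05, adjusted p = 0.0213), to 89.6% of siCTR. That call was lost without siCTR replicate 2 (-0.16), siCTR replicate 3 (-0.15), siMYCN replicate 2 (-0.14) or siMYCN replicate 3 (-0.13), and with no intensity trend. In siHAND2 the difference was -0.09 (95% interval -0.19 to 0.02, adjusted p = 0.192).

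Glutathione synthesis starts with the ligase of GCLC and GCLM. GCLC, its catalytic subunit (chromosome 6, 53497341 to 53616970, minus strand), measured 57.7, 54.9 and 54.1 CPM (siCTR), 47.3, 46.2 and 47.4 CPM (siMYCN) and 45.4, 44.4 and 49.2 CPM (siHAND2). All 6 knockdown libraries lay below siCTR. GCLC fell by 0.24 in siMYCN (standard error 0.05, adjusted p = 0.00174) and by 0.26 in siHAND2 (standard error 0.05, adjusted p = 0.00111), to 84.5% and 83.4% of siCTR. The knockdowns differed by -0.02 (95% interval -0.13 to 0.09, adjusted p = 0.806).

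GCLM, the modifier subunit (chromosome 1, 93885199 to 93909456, minus strand), measured 16.9, 14.7 and 15.3 CPM (siCTR), 16.9, 17.3 and 18.8 CPM (siMYCN) and 14.6, 15.2 and 16.6 CPM (siHAND2). The siMYCN libraries lay just above the siCTR libraries, by 0.17 (95% interval 0.01 to 0.32, adjusted p = 0.0883), and by 0.11 once libraries were rescaled by median ratios and 0.08 once quantiles were normalized. The siHAND2 values overlapped siCTR (-0.02, adjusted p = 0.895). The ratio of GCLC to GCLM was 3.41, 3.73 and 3.53 (siCTR), 2.79, 2.67 and 2.52 (siMYCN) and 3.12, 2.92 and 2.96 (siHAND2). Every knockdown library was thus below every siCTR library in this ratio, and siMYCN was below siHAND2.

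All 13 listed genes of cysteine and glutathione supply were tested. In siMYCN 2 rose and 5 fell, and in siHAND2 1 rose and 4 fell. Without siCTR replicate 2 the siHAND2 calls dropped from 5 to 3. TXNRD1, the cytosolic thioredoxin reductase, averaged 278 ± 10.8 CPM in siCTR, 225 ± 7.63 in siMYCN (-0.30, adjusted p = 4.01e-05) and 241 ± 3.83 in siHAND2 (-0.20, adjusted p = 0.0015). CTH, which makes cysteine from cystathionine, measured 2.54, 2.1 and 2.61 CPM in siCTR and 1.01, 1.15 and 1.37 CPM in siMYCN, with no overlap (-0.65, adjusted p = 4.93e-04). At this low level the CTH difference was set by the pseudocount, at -0.98 with 0.1 and -0.26 with 5, past the threshold in both. CBS, the enzyme before CTH in the same route, fell in both (-0.30, adjusted p = 5.03e-04, and -0.25, adjusted p = 0.00269), and was picked after its values were seen. The glutamine importer SLC1A5 measured 123, 121 and 119.8 CPM (siCTR), 118, 107 and 113 CPM (siMYCN) and 77.3, 72.9 and 69.7 CPM (siHAND2). Its fall of 0.72 in siHAND2 (adjusted p = 1.26e-08) exceeded that of any member in that comparison.

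GPX4, the phospholipid peroxidase (chromosome 19, 1103926 to 1106791, plus strand), measured 95.4, 94.5 and 95.3 CPM (siCTR), 105, 105 and 99.3 CPM (siMYCN) and 96.9, 101 and 91.6 CPM (siHAND2). The siMYCN libraries all exceeded siCTR, by 0.12 (95% interval 0.02 to 0.21, adjusted p = 0.0563). With the replicate block this was 0.12 with an adjusted p of 0.0305. It also passed the threshold without siMYCN replicate 3 (0.14) or siHAND2 replicate 3 (0.12). After median-ratio rescaling it was 0.06 (adjusted p = 0.418) and after quantile normalization 0.06 (adjusted p = 0.362), so its size depended on the scaling. The siHAND2 values lay on both sides of siCTR (0.02, adjusted p = 0.77), and that sign flipped after median-ratio rescaling (-0.04) and quantile normalization (-0.0023).

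Among the 11 listed peroxidases and glutathione transferases 8 were tested. In siMYCN 1 rose and 3 fell, and in siHAND2 4 fell and none rose. PRDX6, a peroxiredoxin that can reduce phospholipid peroxides, measured 170.3, 168 and 167 CPM (siCTR), 126, 118 and 125 CPM (siMYCN) and 139, 142 and 142 CPM (siHAND2). It fell by 0.45 (adjusted p = 5.19e-07) and 0.25 (adjusted p = 1.44e-04), and the 3 groups did not overlap. PRDX1 fell from 125 ± 2.27 to 98.6 ± 4.28 CPM in siMYCN (-0.34, adjusted p = 4.29e-05). It also fell in siHAND2, to 106 ± 5.87 CPM (-0.24, adjusted p = 0.00125). GSTP1, a glutathione transferase, fell from 405 ± 9.46 to 355 ± 3.12 CPM in siHAND2 (-0.19, adjusted p = 0.00111).

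GPX4 needs selenocysteine, and all 9 listed genes of selenoprotein synthesis were tested. In siMYCN 2 rose and 1 fell, and in siHAND2 1 rose and 1 fell. With either other scaling the siMYCN calls were 0 higher and 2 lower, so the split in siMYCN depended on the scaling. SECISBP2, which recruits the selenocysteine machinery to its messages, fell from 58.7 ± 1.04 to 50.5 ± 2.28 CPM in siMYCN (-0.21, adjusted p = 0.00527). LRP8, a receptor for selenoprotein P, rose by 0.14 in siMYCN (adjusted p = 0.0275). Median-ratio rescaling (0.08) and quantile normalization (0.09) each ended that call, as did dropping the intensity trend and leaving out siCTR replicate 1 (0.15), siCTR replicate 2 (0.12), siMYCN replicate 2 (0.13) or siMYCN replicate 3 (0.12). SEPHS1 rose by 0.22 in siHAND2 (adjusted p = 0.00216). It also rose by 0.14 in siMYCN (adjusted p = 0.0302), a call that either other scaling ended. The elongation factor EEFSEC fell by 0.24 in siHAND2 (adjusted p = 0.0232), a call lost without siCTR replicate 1 (-0.20), siCTR replicate 2 (-0.20), siHAND2 replicate 2 (-0.23) or siHAND2 replicate 3 (-0.21). The siMYCN count of 3 was 1 without siCTR replicate 2 or siMYCN replicate 3, and 5 without siHAND2 replicate 3 or with the replicate block. The siHAND2 count of 2 was 1 without siCTR replicate 1, siCTR replicate 2, siHAND2 replicate 2 or siHAND2 replicate 3.

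AIFM2, the coenzyme Q reductase (chromosome 10, 70098223 to 70132934, minus strand), was the lowest of the members. It measured 1.31, 1.46 and 1.71 CPM (siCTR), 1.09, 1.57 and 1.75 CPM (siMYCN) and 2.27, 2.03 and 1.77 CPM (siHAND2). The siHAND2 libraries all lay above the other 6, by 0.28 over siCTR (95% interval 0.0027 to 0.55, adjusted p = 0.12) and 0.30 over siMYCN (adjusted p = 0.101). In siMYCN the difference was -0.02 (-0.30 to 0.25, adjusted p = 0.921). A pseudocount of 1 weighs heavily at this level, and with 5 in its place the differences were 0.11 and 0.12. Without siMYCN replicate 1 the difference between the knockdowns was 0.18. Depth was low too, as about 27 to 69 reads per library gave a counting variation of about 12% to 19.3%. AIFM2 overlaps MACROH2A2 on the other strand, which measured 123 to 130 CPM (siCTR), 142 to 154 CPM (siMYCN) and 147 to 163 CPM (siHAND2). Whether counting used strand is not given in the sources used here, so reads of MACROH2A2 in the AIFM2 values cannot be told apart, and their part was not tested.

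All 16 genes listed for radical trapping, which make or recycle coenzyme Q, tetrahydrobiopterin and related lipids, were tested. In siMYCN 1 rose and 3 fell, and in siHAND2 2 fell and none rose. GCH1, which starts tetrahydrobiopterin synthesis, measured 40.7, 41.6 and 38.6 CPM (siCTR), 51.8, 55.2 and 54.8 CPM (siMYCN) and 39.4, 35.8 and 41.8 CPM (siHAND2). It rose by 0.41 in siMYCN (adjusted p = 5.06e-05), without overlap. DHODH, the mitochondrial dehydrogenase that reduces coenzyme Q, fell from 14.1 ± 0.674 to 10.5 ± 0.41 CPM in siMYCN (-0.39, adjusted p = 6.99e-04). PDSS1, which builds the side chain of coenzyme Q, fell from 13.2 ± 0.238 to 10.3 ± 0.564 CPM in siHAND2 (-0.33, adjusted p = 0.00169). It also fell in siMYCN, to 10.7 ± 0.265 CPM (-0.28, adjusted p = 0.00498). QDPR, which recycles tetrahydrobiopterin, fell by 0.17 in siHAND2 (adjusted p = 0.0277). The QDPR call was lost with no intensity trend and without siCTR replicate 1 (-0.15), siCTR replicate 2 (-0.15), siHAND2 replicate 2 (-0.16) or siHAND2 replicate 3 (-0.13). The siHAND2 count of 2 was 1 without siCTR replicate 1, siCTR replicate 2 or siHAND2 replicate 3 and with no intensity trend, 4 with the replicate block and 5 after median-ratio rescaling.

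ACSL4, the acyl-CoA synthetase for polyunsaturated fatty acids (X chromosome, 109624244 to 109733403, minus strand), measured 98.4, 101 and 96.1 CPM (siCTR), 100.2, 103 and 112 CPM (siMYCN) and 93.8, 83 and 103 CPM (siHAND2). The groups overlapped in all 3 comparisons. The differences from siCTR were 0.09 in siMYCN (95% interval -0.05 to 0.23, adjusted p = 0.299) and -0.08 in siHAND2 (-0.22 to 0.05, adjusted p = 0.362). Without siHAND2 replicate 3 the siHAND2 difference was -0.16 and passed the threshold, and that between the knockdowns was -0.25 in place of -0.17 (adjusted p = 0.0578 with all libraries). Without siHAND2 replicate 2 the latter was -0.09.

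Of 18 listed genes of membrane lipid remodelling and oxidation 14 were tested. In siMYCN 5 rose and 2 fell (median 0.11), and in siHAND2 4 fell and none rose (median -0.03). The siMYCN split depended on the scaling, at 3 higher and 3 lower after median-ratio rescaling and 3 higher and 2 lower after quantile normalization. ACSL1, a synthetase related to ACSL4, measured 135, 135 and 132 CPM (siCTR), 113, 109 and 112 CPM (siMYCN) and 95.1, 94 and 101 CPM (siHAND2). It fell by 0.27 (adjusted p = 1.34e-04) and 0.47 (adjusted p = 2.90e-07), and the 3 groups lay apart. CYB5R1, a reductase that can pass electrons to oxygen, rose from 9.75 ± 0.618 to 14 ± 0.433 CPM in siMYCN (0.49, adjusted p = 1.74e-04). SCD, which makes monounsaturated fatty acids, fell from 651 ± 33.9 to 519.9 ± 21.5 CPM in siHAND2 (-0.32, adjusted p = 6.08e-05).

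NRF2, the product of NFE2L2, is the regulator of many antioxidant genes, GCLC, GCLM and SLC7A11 among them. GCLC, called lower in both knockdowns, and GCLM and SLC7A11, called in neither, were left out of its list. Antioxidant genes of the other lists were left out too, such as TXNRD1 and PRDX1 (lower in both knockdowns) and GPX3 (higher in siMYCN). The calls given next cover this list alone, not all NRF2 targets. Of the 12 listed regulators and targets of NRF2, 10 were tested. Limma called 0 in siMYCN and 0 in siHAND2, beside 35.9% and 29.9% of all genes. At an unadjusted p under 0.05 there were 1 and 0, and no other test was run. Without siHAND2 replicate 3, and after median-ratio rescaling, 1 gene was called in each comparison. In siMYCN 2 were called after quantile normalization and 1 when siHAND2 was left out of the fit. NFE2L2 itself averaged 76.6 ± 0.848 CPM (siCTR), 81.2 ± 5.6 CPM (siMYCN) and 76.1 ± 2.49 CPM (siHAND2), and its target NQO1 averaged 7.58 ± 0.603, 8.05 ± 1.15 and 7.49 ± 0.329 CPM. Both were chosen after their values were seen.

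**Figure D4:**
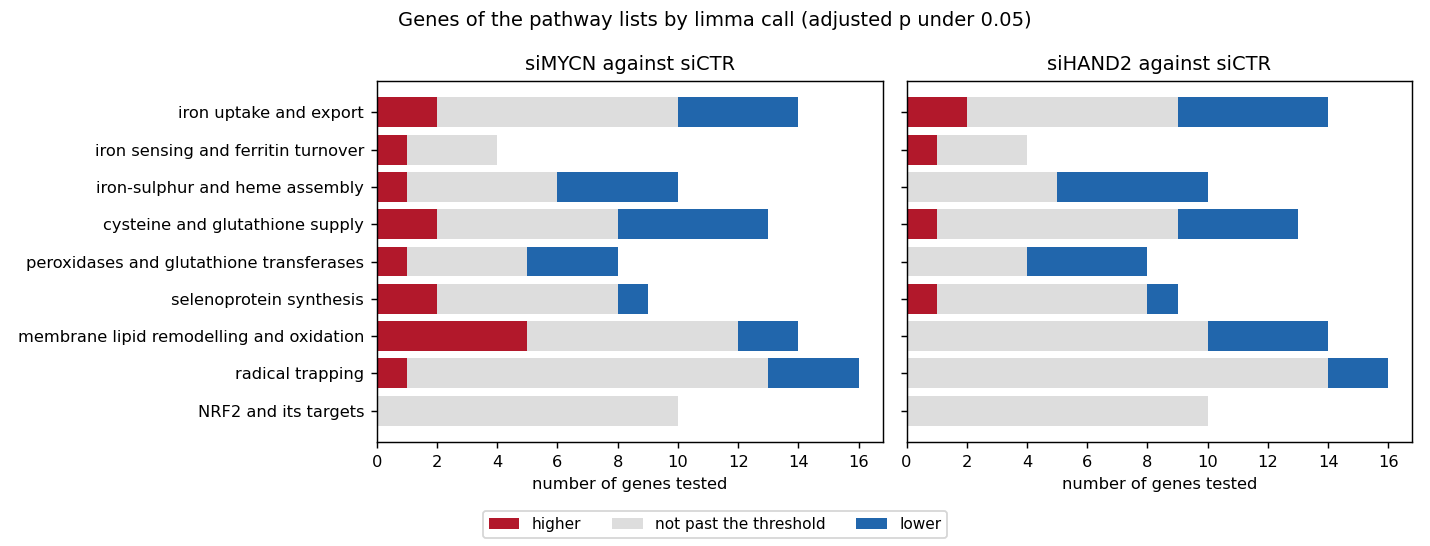
Number of tested genes (x axis) in each of the 9 pathway lists that were called higher, called lower or not called (limma, adjusted p under 0.05) in siMYCN and in siHAND2. The list of membrane lipid genes has 5 higher and 2 lower in siMYCN (3 and 3 after median-ratio rescaling) and 0 higher and 4 lower in siHAND2. The NRF2 list, which leaves out the members and the antioxidant genes of the other lists, has no call in either.

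Over the 9 lists, 98 of 114 listed genes were tested. In siMYCN 15 were called higher and 22 lower (37.8%, beside 35.9% of all genes), and in siHAND2 5 higher and 25 lower (30.6%, beside 29.9%). After median-ratio rescaling the counts were 10 higher and 28 lower in siMYCN and 5 higher and 35 lower in siHAND2. The share of listed genes called in either direction was near that of all genes. By direction it was not, as lower calls outnumbered higher calls in the lists, with CPM as deposited and after median-ratio rescaling. Of all genes, 24.5% were called higher and 11.4% lower in siMYCN, and 18.1% and 11.8% in siHAND2, with CPM as deposited. The split by direction of all called genes depended on scaling: 68.3% were higher in siMYCN with CPM as deposited and 49.7% after median-ratio rescaling, and in siHAND2 the shares were 60.6% and 42.1%.

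Promoter windows of 300 bases (250 before and 50 after the start, RefSeq, GRCh38.p14) were at hand for 8 members, in 12 windows. The E-box CACGTG, known as a MYC-family motif, was in none of the 12, and in 7.26% of all 35116 windows. The antioxidant response motif TGACNNNGC, searched on both strands, was in 3 of the 12 and in 13.3% of all windows. The 3 are printed with the motif in capitals, because they are the members' matches to a motif that NRF2 is known to bind.
GCLM (chr1:93909446-93909474, strand opposite to the gene): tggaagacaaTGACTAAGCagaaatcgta
AIFM2 (chr10:70132829-70132857, strand opposite to the gene): gggcggggcgTGACTCAGCactcgtgctg
SLC3A2 (chr11:62881652-62881680, strand of the gene): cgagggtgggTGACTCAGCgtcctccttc

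A match says only that the letters are present. TFRC, FTL, GCLC, GPX4 and ACSL4 had neither motif in these windows, and nothing follows from that about either factor.

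Apart from the CPM ratios and sums above, levels of different genes were compared only per kb of MANE Select transcript. In siCTR the order was FTL (407 ± 7.48 CPM per kb), FTH1 (153 ± 4.97), TFRC (123 ± 1.36), GPX4 (112 ± 0.587), SLC3A2 (39.3 ± 0.363), ACSL4 (20.1 ± 0.471), GCLC (14.7 ± 0.493), GCLM (3.2 ± 0.232), SLC7A11 (0.9 ± 0.0669) and AIFM2 (0.477 ± 0.0635; SD, n = 3 libraries). The ranges of neighbours in this order did not overlap. In both knockdowns GPX4 (121 ± 3.96 and 113 ± 5.55 CPM per kb in siMYCN and siHAND2) stood above TFRC (87.1 ± 3.86 and 91.5 ± 5.61), and the other places were unchanged. The glutathione ligase chains and the cystine transporter chains were thus unequal in level in every group, with GCLC above GCLM and SLC3A2 above SLC7A11.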

How the data were processed

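RNA-seq of 9 LAN5 libraries was deposited by the authors as 1 table of CPM values over 25084 genes, whose lowest value is 0.0001. Per the submitters' processing notes, STAR 2.5.1 and Partek were used, and hg19 and GRCh37 are named. The gene starts in the table lie within 5000 bp of GRCh38 starts for 91.4% of 18215 matched genes, against 5.63% for GRCh37, so its coordinates are given as GRCh38, with the end 1 base before the listed stop. Counting, strand and annotation are not given in the sources used here. In each library the values up to 20 steps of the smallest step were whole multiples (within 0.02) for 80.1% to 81.5%. Counts were therefore not modelled, and this step served for depth and for approximate read numbers. All value columns were matched to samples by name.

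Tests used log2(CPM + 1), the 14495 genes that reached 1 CPM in 3 or more libraries, and 1 limma 3.58.1 fit (R 4.3.3) of all 9 libraries with an intensity trend, two-sided, with Benjamini-Hochberg adjustment over all genes. In both comparisons with siCTR, same-numbered libraries deviated together from their group means. The correlations over genes were 0.208, 0.102 and 0.215 for siMYCN and siCTR, and 0.154, 0.121 and 0.266 for siHAND2 and siCTR. Pairs with unlike numbers ran from -0.273 (siCTR 3 with siHAND2 1) to 0.179 (siCTR 2 with siHAND2 1). The 2 ranges thus overlapped, and the pairing was weak. A fit with the replicate number as a block is given where it changes the call of a member. Over the 9 lists the block gave 43 calls in place of 37 in siMYCN, and 34 in place of 30 in siHAND2. The members and lists were chosen with earlier results of these data known. The text names every member and, in each list, the 2 called genes with the smallest p in each comparison with siCTR. For TFRC and SLC7A11 it also names the 3 genes of most similar pattern whose mean reached 5 CPM. Alternatives were pseudocounts of 0.1 and 5, no filter, a 5 CPM filter in its place, rescaling by median ratios, quantile normalization, 2 groups alone, no intensity trend, the replicate block and each library left out. For the lists they were added after seeing the data.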

Additional observations from a re-analysis of the deposited data

How the results depend on the processing

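The 10 members in 3 comparisons gave 537 values under the alternatives, of which 508 kept their direction and their side of the threshold, 7 lost a call, 13 gained one and 9 changed sign. The calls of TFRC, FTL and GCLC in both comparisons with siCTR and of FTH1 in siMYCN held under every alternative run. The sign changes were in values that passed no threshold. For AIFM2 in siMYCN they came without siCTR replicate 3 (0.04) or siMYCN replicate 1 (0.10), with a range of -0.10 to 0.10 when 1 library was left out. For GPX4 in siHAND2 they came after median-ratio rescaling (-0.04), quantile normalization (-0.0023) or without siHAND2 replicate 2 (-0.01; range -0.01 to 0.06). For GCLM in siHAND2 they came without siCTR replicate 1 (0.04) or siHAND2 replicate 1 (0.02; range -0.07 to 0.04), and for GCLC between the knockdowns after quantile normalization (0.01) or without siHAND2 replicate 2 (0.01; range -0.06 to 0.01). With 1 library left out, the members called in siHAND2 numbered 3 to 5, the 5 without siHAND2 replicate 3. Those called between the knockdowns numbered 1 (without siMYCN replicate 1) to 4 (without siHAND2 replicate 3). By a chi-square of approximate read numbers, averaged over genes, siHAND2 replicate 3 differed from replicates 1 and 2 by 8.92 and 8.17. Replicates 1 and 2 of siHAND2 differed by 3.43, and pairs within the other groups by 2.91 to 5.77. The cause of the shifts in calls was not tested.

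Between the knockdowns the same-numbered libraries correlated at 0.434 (replicate 1), -0.129 (replicate 2) and 0.245 (replicate 3). The numbers thus did not pair these groups in every replicate. There the replicate block gave 4 member calls in place of 2, with SLC7A11 (0.23) and ACSL4 (-0.17) added, and FTH1 lost its call after quantile normalization (-0.14). Over all genes the block gave 5895, 5089 and 4689 calls in the 3 comparisons in place of 5209, 4339 and 3892. A filter of 5 CPM removed AIFM2, so that alternative gave no value for it. Depth limits AIFM2 most, at about 27 to 69 reads per library.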

Other observations

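The direct comparison of the knockdowns does not use the siCTR means. It gave 12 listed genes higher and 26 lower in siHAND2 than in siMYCN of 98 tested (38.8%, beside 26.9% of all genes). By direction, 11.4% of all genes were called higher and 15.5% lower. Without siMYCN replicate 1 the counts of listed genes fell to 4 higher and 22 lower. Without siHAND2 replicate 2 they fell to 5 and 22, while quantile normalization gave 17 and 22. Single lists moved more, with cysteine and glutathione supply going from 7 calls to 2 without siMYCN replicate 2 and to 3 without siMYCN replicate 1. Peroxidases and glutathione transferases went from 5 calls to 2 with no intensity trend and to 3 without siMYCN replicate 1. Iron uptake and export went from 4 calls to 2 without siMYCN replicate 1, siMYCN replicate 3 or siHAND2 replicate 2. The 1 call in iron sensing was lost in 11 of 18 alternatives. Of the 14 tested genes of membrane lipid remodelling and oxidation, 8 were lower in siHAND2 and none was higher, beside 15.5% and 11.4% of all genes. The list median was -0.18, beside -0.01 for all genes. Leaving out libraries and the other alternatives gave 7 to 9 calls in this list. The genes given next were chosen after their values were seen. LPCAT3, which places polyunsaturated chains in phospholipids, averaged 10.9 ± 0.353 CPM in siMYCN and 8.46 ± 0.694 in siHAND2 (-0.33, limma adjusted p = 0.00686). The desaturase FADS1 averaged 303 ± 6.77 and 263 ± 7.26 CPM (-0.20, adjusted p = 9.33e-04), and neither gene overlapped between these groups. In siCTR LPCAT3 averaged 8.92 ± 0.742 CPM. Against siCTR it rose in siMYCN (0.26, limma adjusted p = 0.021) and was not called in siHAND2 (-0.07, adjusted p = 0.574). FADS1 averaged 284 ± 5.26 CPM in siCTR. It fell in siHAND2 (-0.11, adjusted p = 0.0472), with no call in siMYCN (0.09, adjusted p = 0.0707). CHAC1, which breaks down glutathione, averaged 4.06 ± 0.696 CPM in siCTR and 6.33 ± 0.837 in siHAND2 (0.54, adjusted p = 0.00829).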
